A study of Mus musculus with 12 samples.

Results

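Genes for mitochondrial protein import, mitochondrial fusion and fission, and the movement of mitochondria along microtubules were followed in mouse amygdala. They were chosen by gene symbol, with a list that covers the TOM and TIM translocases, the sorting machinery, presequence processing, twin-cysteine proteins, fusion, fission, prohibitins, inner membrane proteases and transport adaptors. The array held 114 such probes of 59 genes, among 45281 probes and 19057 named genes in all. A probe was kept where its detection p-value, the array's own test of signal over background, was under 0.05 on at least 4 arrays. That left 99 probes of 53 genes, among 23516 probes tested with all 12 arrays and 23260 with 10. The 6 genes with no tested probe were Chchd2, Chchd3, Grpel2, Mtfr1, Mtx2 and Timm8a2. Detection was the only measured value in this filter, but the gene list was drawn up with earlier results of these data known. Just inside the filter lay Timm22, detected on 4 arrays, and 1 probe each of Dnajc19, Grpel1, Mief1 and Timm21, detected on 5. Just outside lay Mtx2 and a Tomm40 probe, on 3 arrays, and a Timm21 and an Mtfr1 probe, on 2.

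The study asked how fear conditioning, with or without previous stress, alters the amygdala transcriptome, in work on the nociceptin receptor gene Oprl1. Total RNA came from bilateral 1 mm amygdala punches of male C57Bl/6J mice aged 10 weeks. The groups were immobilized mice that were then fear conditioned and taken 2 h after it (IMO_FC), mice taken 2 h after fear conditioning alone (FC), and home-cage mice (HC), with 4 single-colour bead arrays each. IMO_FC and FC mice were both conditioned, so IMO_FC differs from HC by both procedures. The labels number the arrays of a group, and do not say whether an array stands for 1 animal. The p-values here therefore reflect array-to-array spread alone, which may be technical. In a tissue punch, fewer cells of a type and less RNA per cell cannot be told apart.

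Most mitochondrial proteins are made in the cytosol and cross the outer membrane through the TOM pore. The TIM23 channel and its ATP-driven motor then draw precursors with a presequence into the matrix, while small TIM chaperones escort carrier proteins to TIM22. Mitofusins and Opa1 fuse the outer and inner membranes, the dynamin-like protein Dnm1l divides the organelle with its receptors Mff, Fis1, Mief1 and Mief2, and Rhot and Trak proteins couple it to motors. In neurons these steps supply distant axons and synapses with working mitochondria.

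Many promoters of these genes held the same short sequence, and examples are shown because it is a regulatory feature that the choice of members did not use. RefSeq promoters, 250 bases before to 50 after the transcription start in GRCm38.p6, were matched for 50 of the 59 genes, as 60 promoters. CCGGAAG, the core bound by ETS factors such as GABP (also called NRF2), stood on either strand of 25 of the 60 (41.7%), against 8.86% of all 32851 promoters and 11.6% of the 21263 of protein-coding genes. The core bound by NRF1 stood in 7 of the 60 (11.7%), against 4.6% of all and 6.38% of protein-coding promoters. Matches to the ETS core are in capitals in the first 5 lines and the match to the NRF1 core in the last, each with its flanks in lower case and read along the gene's strand. A match is a description of these letters and shows no binding.
Timm23 (chr14:32201917-32201953, minus strand): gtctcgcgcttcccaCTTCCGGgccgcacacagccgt
Timm29 (chr9:21592495-21592531, plus strand): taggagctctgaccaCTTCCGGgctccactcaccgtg
Mfn1 (chr3:32529423-32529459, plus strand): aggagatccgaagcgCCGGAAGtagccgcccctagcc
Mief1 (chr15:80234000-80234036, plus strand): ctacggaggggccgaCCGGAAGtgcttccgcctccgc
Immt (chr6:71831186-71831222, plus strand): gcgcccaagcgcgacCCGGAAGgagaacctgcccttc
Opa1 (chr16:29579260-29579299, plus strand): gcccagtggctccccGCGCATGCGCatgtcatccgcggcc

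Most tested members were detected on each of 10 arrays, and FC 1 and FC 3 stood apart. Of the 99 probes, IMO_FC arrays detected 83.8% to 94.9% and HC arrays 88.9% to 93.9%. FC 2 and FC 4 detected 91.9% and 98.99%, but FC 1 and FC 3 only 13.1% and 33.3%. Over all probes FC 1 and FC 3 detected 11.7% and 15.9%, and the other arrays 39.0% to 50.7%. Among 72 member probes detected on all the other 10 arrays, FC 1 retained 12 (16.7%, against 25.6% of 13662 such probes in all), FC 3 retained 31 (43.1%, against 36.4%), and neither detected 38. Each comparison was therefore also made without those arrays, which leaves n = 2 in FC, and values for single arrays below come from this 10-array normalization unless stated. IMO_FC 1 also stood apart. It was the highest or the lowest of the IMO_FC arrays for 77.8% of member probes (82.5% of all probes), at a median of 0.49 log2 units from the group's median, against 0.098 to 0.14 for the other IMO_FC arrays. Neuron markers (Snap25, Rbfox3, Syt1, Stmn2 and Nefl) were detected on every IMO_FC and HC array, and 3 of 5 central amygdala markers on every one of them.

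**Figure D1:**
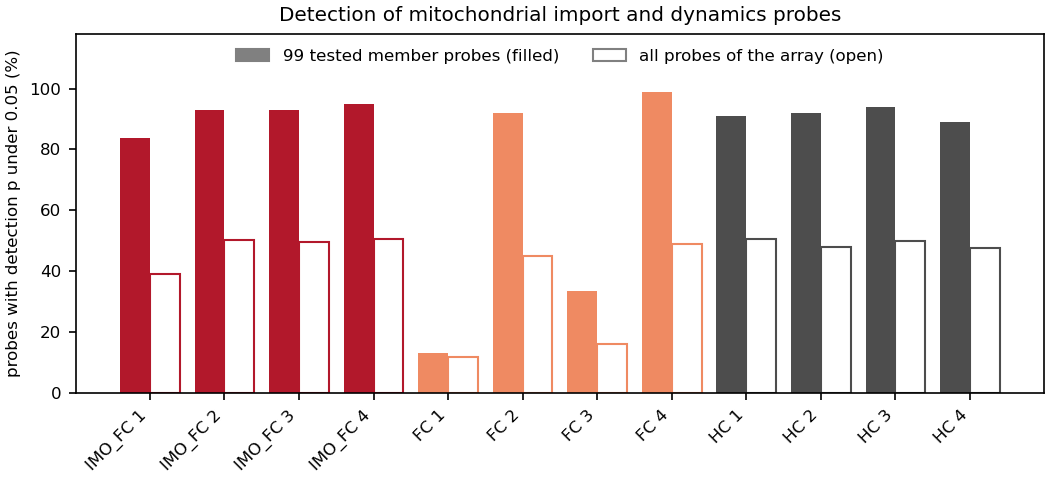
Share of probes detected (percent of probes with detection p under 0.05) on each array, with the 99 tested member probes as filled bars and all probes of the array as open bars. FC 1 and FC 3 detected 13.1% and 33.3% of member probes, and the other arrays 83.8% to 98.99%.

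IMO_FC against HC asks what immobilization followed by conditioning leaves in the amygdala. The import and dynamics genes as a group lay close to HC. Of the 99 probes 49 were above HC and 50 below, with a median log2 difference of −0.0010 in the 10-array fit and −0.0013 with all 12 arrays, against −0.0076 and −0.0056 over all probes tested. Single probes ran from −0.72 to 1.84. Limma called 0 of the 99 at an adjusted p under 0.05, in both fits, and 0% of all probes. At unadjusted p under 0.05 there were 2 member probes with all 12 arrays (0.4% of all probes), on Msto1 and Tomm6, and 3 with 10 arrays (3.17% of all probes), the third on Timm10b. Limma with array weights, which down-weight arrays of wide spread, called 1 of the 99, Msto1 (adjusted p = 0.0313), among 2 of all 23516 probes (0.0085%). Msto1 is a gene that is here because an earlier look at these arrays singled it out, so the call is no independent support. On 5 probes every IMO_FC array lay to one side of every HC array (2.45% of all probes with 10 arrays, 2.44% with 12). The 4 higher in IMO_FC were on Msto1, Tomm6, Timm10b and Mff (1.19% of all probes with 10 arrays), and the 1 lower was on Timm29 (1.26% of all).

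Many of these small differences rested on IMO_FC 1. With it left out as well, a step chosen after seeing the data, 52 were above HC and 47 below, the median was 0.012, and 27 of the 99 probes changed sign.

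Precision differed with the strength of the probe. For 66 of the 99 probes (66.7%, against 56.1% of all probes) the 95% interval of the 10-array difference stayed within 2-fold in both directions. Of the 41 member probes with a mean log2 value of 8 or more, 38 had such an interval, their differences had an SD of 0.18, and the largest in size was 0.64. Of the 58 dimmer ones, 28 had one, and the SD was 0.49.

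**Figure D2:**
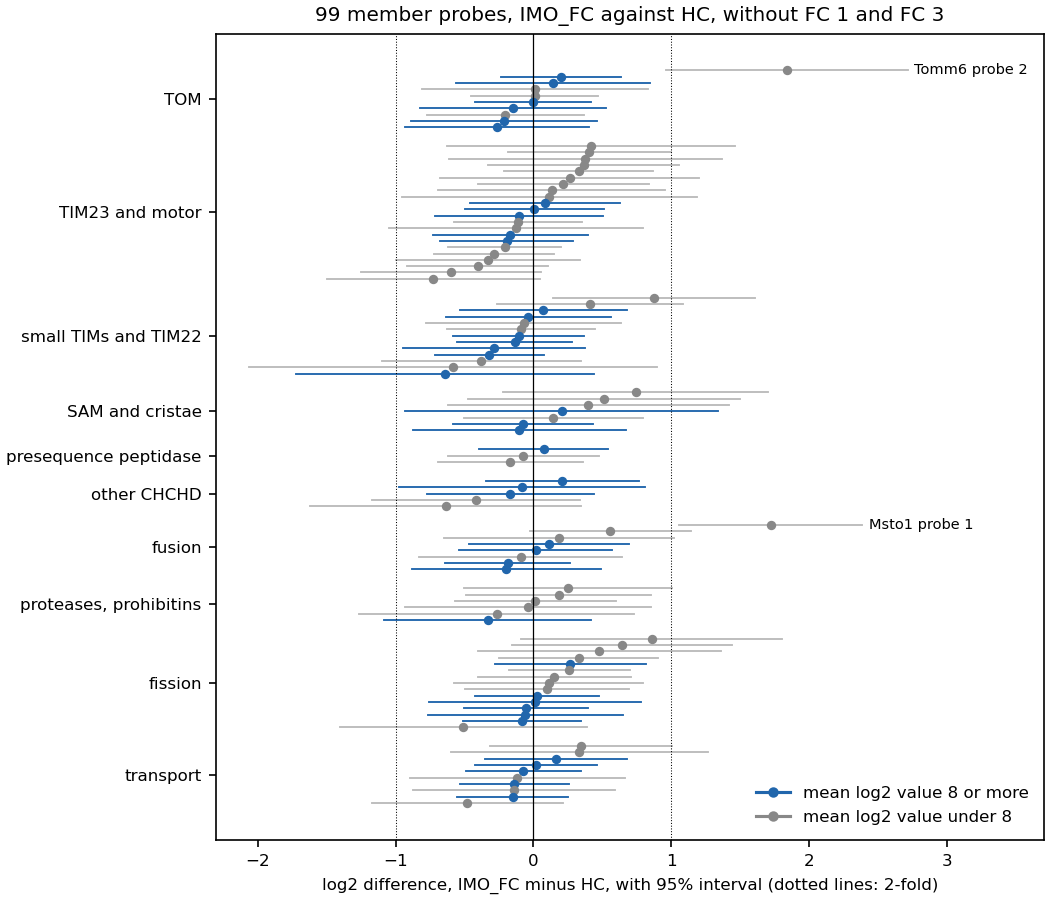
Log2 difference between IMO_FC and HC (IMO_FC minus HC) for each of the 99 member probes, with its 95% interval, in the 10-array fit and grouped by role; blue marks probes with a mean log2 value of 8 or more. The probes centre on 0, with Tomm6 probe 2 at 1.84 and Msto1 probe 1 at 1.72 on the far right.

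Msto1 and Tomm6 were followed because earlier results named them, and their values are a description with no test. Probes of a gene are numbered from the highest mean value down. Msto1, a cytosolic protein needed for mitochondrial fusion in human cells, has 1 probe here. It stood at 7.37, 6.02, 6.28 and 6.45 on the IMO_FC arrays, at 5.58 and 5.20 on FC 2 and FC 4, and at 4.46, 4.76, 5.08 and 4.93 on the HC arrays. The 3 groups did not overlap in these normalized values of 10 arrays, with FC between the others. With all 12 arrays FC 1, at 4.47, lay within the HC range of 4.43 to 4.98. The difference between IMO_FC and HC was 1.72 ± 0.301 (SE). It was 1.60 ± 0.393 with all 12 arrays and 1.48 without FC 1, FC 3 and IMO_FC 1, the highest array. In HC the probe was detected on 1 of 4 arrays and in IMO_FC on all 4, so the HC level is near background and the size of the difference depends on how background is handled. The signals before any normalization were 127, 100, 137 and 135 in IMO_FC and 37.0, 73.1, 84.3 and 72.2 in HC, again without overlap. On FC 2 and FC 4 they were 83.9 and 82.2, below HC 3. The separation of FC from HC therefore depends on the normalization. Without background correction the difference was 0.88, and with the authors' normalized values 0.81.

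Tomm6, a small subunit that steadies the TOM pore, has 2 probes that gave different pictures. Tomm6 probe 2 stood at 7.001, 7.10, 6.18 and 7.76 in IMO_FC, at 5.96 and 6.65 in FC, and at 4.68, 6.05, 5.25 and 4.71 in HC. IMO_FC and HC arrays did not overlap, narrowly between IMO_FC 3 and HC 2, and the difference was 1.84 ± 0.396 (1.73 with all 12 arrays). HC detected it on 2 of 4 arrays. Tomm6 probe 1, detected on all IMO_FC and HC arrays, stood at 9.76, 8.37, 9.16 and 9.02 in IMO_FC, at 9.51 and 9.37 in FC, and at 8.55, 8.89, 8.74 and 9.55 in HC. Here the groups overlapped throughout, with a difference of 0.14 ± 0.319 (−0.085 without IMO_FC 1) and an interval of −0.56 to 0.85, which does not reach the 1.84 of the other probe. Which transcripts each probe binds was not examined.

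**Figure D3:**
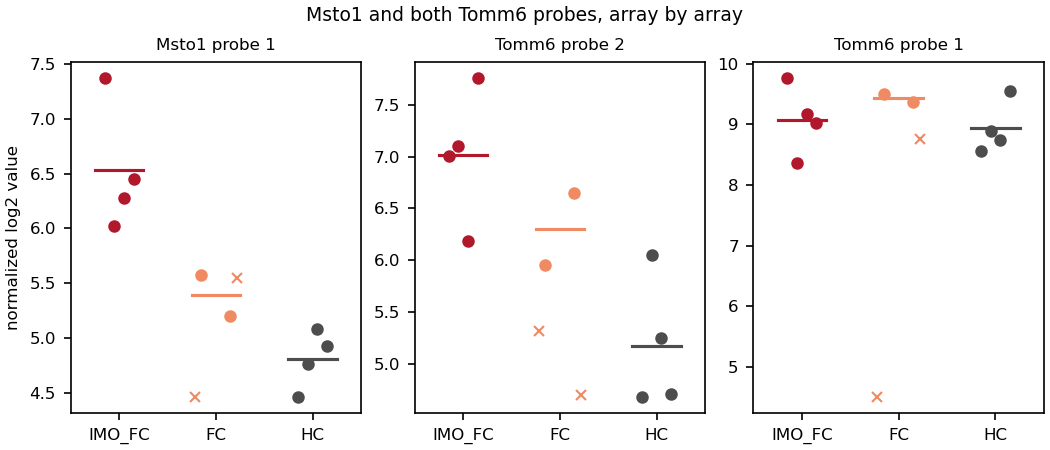
Normalized log2 value of Msto1 and of both Tomm6 probes on each array (circles: 10-array normalization, with a bar at each group's mean; crosses: FC 1 and FC 3 from the 12-array normalization, not in the mean). Msto1 and Tomm6 probe 2 separate IMO_FC from HC, with differences of 1.72 and 1.84, and Tomm6 probe 1, at 0.14, does not.

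Of the 10 tested TOM probes (Tomm6, Tomm7, Tomm22, Tomm34, Tomm40 and Tomm40l) 5 were higher and 5 lower in IMO_FC, with a median of 0.0034. Apart from Tomm6, 3 were higher and 5 lower, with a median of −0.074, and without IMO_FC 1 these were 7 and 1, with a median of 0.063. Tomm40l, a close relative of the pore protein Tomm40, was the TOM probe with the least spread. It stood at 9.94, 9.95, 10.08 and 10.08 in IMO_FC and at 10.17, 9.90, 9.96 and 10.03 in HC. The arrays were intermixed and the difference was −0.0010 ± 0.190, with an interval of −0.42 to 0.42. Tomm22, a receptor subunit, was −0.26 and 0.0083 on its 2 probes, and Tomm7, which modulates the pore, −0.15. Tomm34, a cytosolic cochaperone of import, gave −0.21 and −0.20. The negative values rested largely on IMO_FC 1. Without it Tomm22 probe 1 was at 0.049, Tomm7 at 0.091 and Tomm34 probe 1 at 0.077. Tomm34 probe 2 stayed below HC, at −0.049.

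Among TIM23 and motor genes (Timm17a, Timm17b, Timm21, Timm23, Timm44, Timm50, Hspa9, Grpel1, Pam16 and Dnajc19) 11 probes were higher and 11 lower, with a median of −0.048 and 0 called. Timm23, the channel itself, stood at 7.85, 7.38, 7.29 and 6.87 in IMO_FC and at 6.71, 6.76, 7.20 and 7.10 in HC. The ranges overlapped through IMO_FC 4, and the difference of 0.40 ± 0.268 was 0.24 without IMO_FC 1. Pam16, which holds the motor's J-protein in check, gave 0.36 ± 0.313, and 0.094 without IMO_FC 1, which at 8.36 was the highest array of the 10. Timm17b, a channel subunit, gave 0.38 ± 0.447. Timm44, which tethers the motor to the channel, was lower on its first 2 probes. Its probe 2 stood at 6.98, 7.24, 6.81 and 6.84 in IMO_FC and at 7.15, 7.17, 7.14 and 7.23 in HC. IMO_FC 2 lay above all HC arrays and the other IMO_FC arrays below them, for a difference of −0.21 ± 0.186. Probe 1 gave −0.29 ± 0.196 and probe 3, of weaker signal, 0.42 ± 0.472. Hspa9, the mitochondrial Hsp70 that drives the motor, gave −0.17 ± 0.254 and 0.083 ± 0.245, and 0.026 and 0.18 without IMO_FC 1.

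Timm21, which links TIM23 to TOM in yeast and human cells, had the most negative difference of the motor group, and its probes disagreed. Probe 1 stood at 7.63, 6.77, 7.02 and 7.69 in IMO_FC, at 6.97 and 7.32 in FC, and at 7.92, 7.88, 7.33 and 8.37 in HC. Probe 2 stood at 7.29, 5.79, 6.34 and 6.63 in IMO_FC, at 6.14 and 6.67 in FC, and at 7.33, 7.07, 6.71 and 7.84 in HC. On both probes the FC arrays lay below all HC arrays, and IMO_FC overlapped HC. The differences from HC were −0.60 ± 0.294 and −0.72 ± 0.349 in IMO_FC, and −0.73 ± 0.361 and −0.83 ± 0.427 in FC, with 0 past the test. Probe 3 went the other way, at 0.33 in IMO_FC and 1.44 in FC, and was detected on 2 of 4 IMO_FC arrays, both of those FC arrays and 1 of 4 HC arrays.

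Small TIM and TIM22 genes (Timm8a1, Timm8b, Timm9, Timm10, Timm10b, Timm13, Timm22 and Timm29) had 3 probes above HC and 10 below, with a median of −0.11 and 0 called. Without IMO_FC 1 the counts were the same and the median was −0.15. Timm29, a TIM22 subunit in human cells, stood at 9.50, 9.58, 9.67 and 9.60 in IMO_FC and at 10.00, 9.87, 9.76 and 10.00 in HC. Every IMO_FC array lay below every HC array, by a mean of −0.32 ± 0.180 (1.25-fold lower, adjusted p = 0.999 by limma), with a 95% interval of −0.72 to 0.078. FC 2 and FC 4, at 9.52 and 9.71, also lay below all HC arrays. Timm10b, a small TIM bound to TIM22, differed between probes: probe 2 stood at 6.09, 6.51, 5.92 and 6.10 in IMO_FC and at 5.75, 5.04, 4.78 and 5.57 in HC, without overlap. Its difference was 0.87 ± 0.332 (adjusted p = 0.999 by limma), while probe 1 gave 0.41 ± 0.305 and probe 3 −0.38 ± 0.326. Timm8a1, the mouse counterpart of the human deafness-dystonia gene, gave −0.64 ± 0.489. That rests on IMO_FC 1 at 6.71, against 8.33, 8.54 and 8.86 on the other IMO_FC arrays, and without it the difference was −0.18. Timm13, the partner of Timm8 proteins, gave −0.58 ± 0.669, and −0.21 without IMO_FC 1. Timm9 and Timm10, which form the main carrier chaperone, gave −0.14, −0.037 and −0.071 on the 3 Timm9 probes and 0.072 on Timm10. Without IMO_FC 1, Timm9 probe 2 was at 0.19 and Timm10 at −0.14.

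In the sorting and cristae group (Samm50, Mtx1, Immt and Chchd6) 5 of 7 probes were higher in IMO_FC, with a median of 0.20, and 4 of 7 without IMO_FC 1, with a median of 0.028. Immt, the large scaffold of cristae junctions, stood at 9.38, 9.93, 9.67 and 9.81 on probe 1 in IMO_FC and at 9.95, 9.89, 9.81 and 9.45 in HC, intermixed, with a difference of −0.078 ± 0.229. Its probe 2 gave 0.40 ± 0.462, with IMO_FC 1 the highest at 8.02, and −0.039 without it. The outer membrane protein Mtx1 gave 0.20, 0.74 and 0.51 on 3 probes, each with an SE of 0.43 or more, and −0.24, 0.38 and 0.028 without IMO_FC 1. Samm50, the core of the sorting machinery, gave 0.15 ± 0.292, and 0.42 without IMO_FC 1. Presequence processing was close to HC: Pmpcb, the catalytic subunit of the processing peptidase, stood at 10.08, 9.70, 9.60 and 9.51 in IMO_FC and at 9.74, 9.92, 9.52 and 9.42 in HC (0.075 ± 0.211, and −0.042 without IMO_FC 1), and Pmpca gave −0.072 and −0.17.

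Of the other twin-cysteine genes (Chchd1, Chchd4, Chchd5, Chchd7 and Chchd10) 4 of 5 lay below HC, and the median difference was −0.17. Without IMO_FC 1 it was again 4 of 5, with a median of −0.39. Chchd7 stood at 7.35, 7.38, 7.38 and 7.11 in IMO_FC and at 7.77, 7.74, 7.23 and 8.14 in HC, where HC 3 fell inside the IMO_FC range, for a difference of −0.42 ± 0.340. Chchd5 gave −0.63 ± 0.445, and −0.39 without IMO_FC 1. Chchd4, the receptor and oxidase that imports cysteine-rich proteins, gave −0.17 ± 0.273. Chchd10, mutated in human motor neuron disease, gave 0.21 ± 0.251 through IMO_FC 1 at 11.37, against 10.60, 10.51 and 10.57 on the other IMO_FC arrays, and 0.0070 without it.

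Apart from Msto1, fusion genes (Mfn1, Mfn2 and Opa1) were close to HC. Mfn2, an outer membrane mitofusin, stood at 10.70, 11.21, 11.17 and 11.22 in IMO_FC and at 11.25, 11.45, 11.18 and 11.18 in HC. IMO_FC 1 was the lowest array, IMO_FC 3 lay just below the HC arrays and the other IMO_FC arrays among them, and the difference was −0.19 ± 0.204. Mfn1, its relative, gave 0.015, 0.11 and 0.56 on 3 probes, and Opa1, which fuses inner membranes, −0.20, −0.094 and 0.18. Without IMO_FC 1, Opa1 probe 1 was at 0.13, probe 2 at −0.30 and probe 3 at 0.39. In the protease and prohibitin group 3 probes were higher and 3 lower, with a median of −0.013, and 5 and 1 without IMO_FC 1, with a median of 0.13. Oma1, a stress-activated protease that cuts Opa1, gave 0.013 ± 0.265, and the prohibitin Phb2 −0.33 ± 0.338, through IMO_FC 1 at 7.34 against 8.56 to 8.98 on the other IMO_FC arrays, and 0.012 without it.

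Fission genes (Dnm1l, Mff, Fis1, Mief1, Mief2 and Mtfp1) had 11 probes above HC and 4 below, with a median of 0.11 and 0 called. Without IMO_FC 1 these were 12 and 3, with a median of 0.24. Dnm1l, the fission dynamin, gave 0.0095, 0.27, −0.058 and −0.51 on its 4 probes. Leaving out IMO_FC 1 put these at 0.35, 0.11, 0.27 and −0.044. That array was the lowest IMO_FC array on all but probe 2. Fis1, an outer membrane adaptor, stood at 9.20, 9.37, 9.58 and 9.34 on probe 1 in IMO_FC and at 9.29, 9.66, 9.37 and 9.50 in HC, intermixed, with −0.081 ± 0.193. Mief1, a receptor for Dnm1l, stood at 6.35, 6.78, 6.17 and 6.46 on probe 1 in IMO_FC and at 6.53, 4.95, 6.12 and 5.60 in HC, with overlap through HC 1 and a difference of 0.64 ± 0.361. Its probe 2, at 0.86 ± 0.428, had IMO_FC 1 at 7.24 and the other IMO_FC arrays at 4.98 to 5.47, and 0.39 without it. Mff probe 3 separated the groups narrowly, at 7.44, 7.05, 7.07 and 7.08 in IMO_FC and at 6.89, 6.91, 6.76 and 7.04 in HC, with a difference of 0.26 ± 0.198. Mff probes 1, 2 and 4 gave −0.053, 0.33 and 0.48, with overlap. Without IMO_FC 1, Mff probes 1 to 4 gave −0.095, 0.24, 0.17 and 0.034.

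Transport genes (Rhot1, Rhot2, Trak1 and Trak2) had 4 probes above HC and 6 below, with a median of −0.095, and 5 of the 10 changed sign without IMO_FC 1. Trak2, an adaptor between mitochondria and motors, stood at 8.84, 8.71, 8.90 and 9.002 on probe 2 in IMO_FC and at 9.06, 9.08, 8.98 and 8.89 in HC. The difference was −0.14 ± 0.179 with an interval of −0.54 to 0.26. Rhot2, an outer membrane GTPase that anchors the adaptors, gave 0.017 ± 0.200 on probe 1 (−0.013 without IMO_FC 1), and Trak1 −0.073 ± 0.187 (0.0094 without it).

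FC against HC asks what conditioning alone changes, and its answer depended on FC 1 and FC 3. With all 12 arrays 34 member probes were higher in FC and 65 lower, with a median of −0.44, against −0.29 over all probes. Limma called 0 of them, as 0% of all probes, with a lowest adjusted p of 0.297, while 24 had unadjusted p under 0.05 (16.7% of all probes), 3 higher (4.16% of all) and 21 lower (12.6% of all). Arrays of the groups did not overlap on 8 probes (3.76% of all). Without FC 1 and FC 3, 48 were higher and 51 lower, the median was −0.0057, against −0.0012 over all probes, and 0 were called, as 0% of all. In that fit 8 had unadjusted p under 0.05 (3.46% of all probes), 6 higher (1.71% of all) and 2 lower (1.75% of all). There 16 did not overlap (11.3% of all probes), 9 higher (5.68% of all) and 7 lower (5.66% of all). Array weights called 0 as well, as 0% of all.

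In normalized values FC 1 and FC 3 moved single members far, in both directions. Member probes with a mean of 8 or more over the arrays other than FC 1 and FC 3 had a median of −1.32 with all arrays. Over all probes of that strength it was −1.02, and without those 2 arrays the members' median was −0.033. As the class was set without FC 1 and FC 3, a fall on them is partly built into it. Phb, a prohibitin, stood at 9.58 and 9.65 on FC 1 and FC 3 in the 12-array normalization, and at 6.24 and 7.17 on FC 2 and FC 4 without them, against 6.45, 7.27, 6.99 and 7.88 in HC. Its difference was 1.13 with all arrays and −0.44 without the 2. Before normalization its signal was 77.5 on FC 1 and 284 on FC 3, against 89.3, 225, 193 and 289 in HC. So the unnormalized signal lay below all HC arrays on FC 1 and within their range on FC 3. Timm29 was lower after normalization, at 4.34 and 4.69 on FC 1 and FC 3, with differences of −2.74 and then −0.29. Its signals before normalization were also low there, at 32.2 and 57.7, against 805 or more in HC. The part of low detection in these shifts was not tested, since detection and level come from the same signal.

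**Figure D4:**
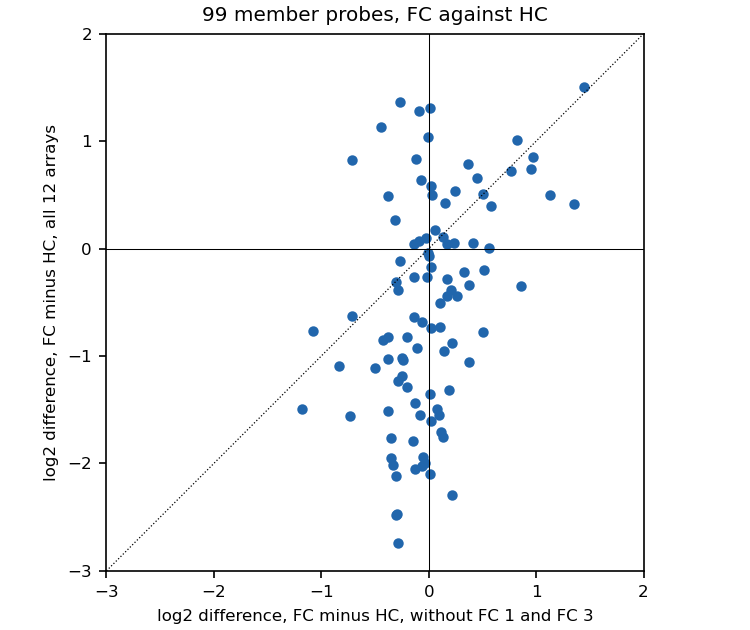
Log2 difference between FC and HC (FC minus HC) of the 99 member probes without FC 1 and FC 3 (horizontal axis) and with all 12 arrays (vertical axis), with equal values on the dotted line. The medians are −0.0057 on the horizontal axis and −0.44 on the vertical axis, where Timm29 is the lowest at −2.74.

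FC 2 and FC 4 carry the FC mean in the 10-array fit. There TIM23 and motor genes had 5 probes above HC and 17 below, with a median of −0.16. Of their 22 tested probes 5 lay below all HC arrays, against 5.66% of all probes tested, with n = 2 in FC. These were probes 1 and 2 of Timm21, probes 1 and 2 of Timm44 and probe 2 of Grpel1, so probes of the same gene count more than once. On Timm21 probe 1 the gap was narrow, with FC 4 at 7.321 and HC 3 at 7.327. TOM genes had 8 above and 2 below, with a median of 0.14, and fission genes 10 above and 5 below, with a median of 0.092. No probe of these groups was called. With all 12 arrays TOM genes had 2 above and 8 below, with a median of −0.83, and fission genes 7 above and 8 below, with a median of −0.18, so the direction of both turned with the arrays used. Besides Timm21 probes 1 and 2 and Timm29, Timm44 lay below HC on both FC arrays on its probes 1 and 2. Probe 1 stood at 7.07 and 7.08 in FC, against 7.61, 7.25, 7.34 and 7.81 in HC, and probe 2 at 6.83 and 6.75 in FC. The differences were −0.43 ± 0.240 and −0.38 ± 0.227. Timm44 probe 3, of weaker signal, overlapped HC. Chchd7 gave −1.18 ± 0.416 (adjusted p = 1.000 by limma), with FC 2 at 5.71 and FC 4 at 7.37, so 1 array carried it. Grpel1 probe 2, of the motor's nucleotide exchange factor, was detected on neither FC array. Its mean was at least 1.22-fold lower than in HC, a bound from the weakest detected signal that leaves out array-to-array spread. Grpel1 probe 1 gave 0.18.

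On the higher side in FC, Timm21 probe 3 stood at 6.01 and 6.42, against 4.55, 5.03, 4.66 and 4.84 in HC, a difference of 1.44 ± 0.299 (adjusted p = 1.000 by limma). HC detected it on 1 of 4 arrays, so the HC level is near background. Mff probe 4, at 6.20 and 6.24 in FC and 4.79, 5.22, 4.82 and 4.62 in HC, gave 1.36 ± 0.488, and HC detected it on 1 of 4 arrays. Mff probe 1, the brightest, stood at 9.31 and 9.55 in FC and at 9.38, 9.59, 9.13 and 9.73 in HC, intermixed. Mff probes 2 and 3 overlapped HC as well. Mtfp1, an inner membrane protein that promotes fission, stood at 6.51 and 5.71 in FC and at 5.04, 5.71, 5.37 and 5.26 in HC (0.77 ± 0.307). Timm22, the carrier channel, stood at 5.87 and 5.29 in FC and at 4.85, 5.13, 4.70 and 4.35 in HC (0.82 ± 0.297). Timm17b gave 0.86 on probe 1 and −1.08 on probe 2. Msto1, at 0.58 ± 0.369, and Oma1, at 0.50 ± 0.324, lay above HC on both FC arrays in normalized values. Before normalization both FC arrays lay below HC 3 on each of these genes.

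**Figure D5:**
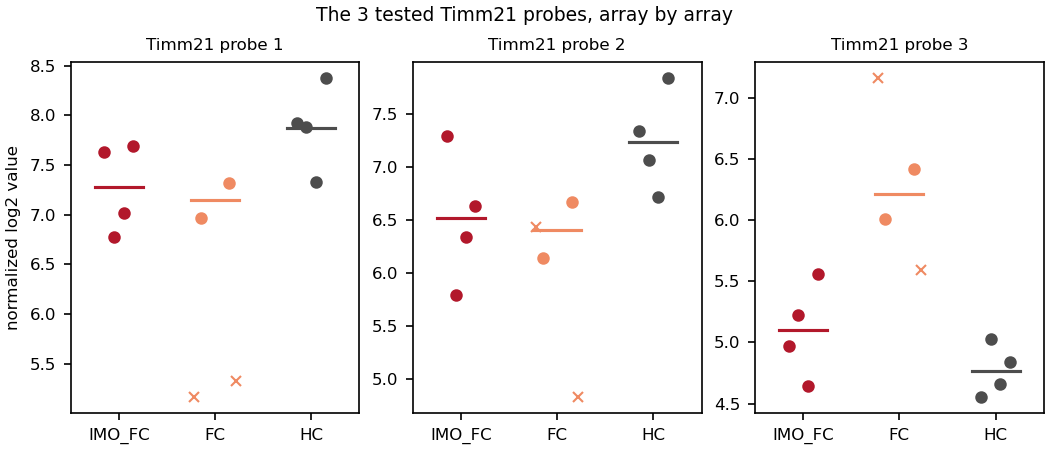
Normalized log2 value of the 3 tested Timm21 probes on each array (circles: 10-array normalization, with a bar at each group's mean; crosses: FC 1 and FC 3 from the 12-array normalization, not in the mean). Probes 1 and 2 stand below HC in FC, by −0.73 and −0.83, and probe 3 stands above it, by 1.44.

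IMO_FC against FC asks what previous immobilization adds to conditioning. With all 12 arrays 69 member probes were higher in IMO_FC and 30 lower, with a median of 0.63, against 0.28 over all probes. Limma called 0, as 0% of all probes, with a lowest adjusted p of 0.356, 18 had unadjusted p under 0.05 (13.7% of all), and 4 did not overlap (2.65% of all). Without FC 1 and FC 3 the split was 54 and 45, the median 0.012 against −0.0059 over all probes, and 0 were called. There 3 had unadjusted p under 0.05 (3.5% of all probes), on Msto1, Timm21 and Timm22, and 11 did not overlap (9.82% of all), 4 higher (4.75% of all) and 7 lower (5.07% of all). Array weights called 0 here too, as 0% of all.

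Msto1 was 1.14 ± 0.369 above FC, or 1.20 with all 12 arrays and 0.87 with IMO_FC 1 also left out. Chchd7 gave 0.76 ± 0.416 and Phb 0.69 ± 0.417, where Phb stood at 7.90, 7.19, 7.18 and 7.32 in IMO_FC and at 6.24 and 7.17 in FC. In the other direction Timm21 probe 3, at 4.97, 5.23, 4.64 and 5.56 in IMO_FC, was −1.11 ± 0.299 from FC. Timm22, at 4.83, 4.80, 4.70 and 4.34, was detected on 0 IMO_FC arrays and on both FC arrays. Its mean was at least 1.51-fold lower in IMO_FC, a bound that leaves out array-to-array spread. Mtfp1 gave −0.62 ± 0.307, at 5.14, 5.70, 5.55 and 5.58 in IMO_FC, all below both FC arrays, and Oma1 −0.49 ± 0.324. IMO_FC and FC were both set against the same HC arrays above, and FC against both other groups, so the comparisons share arrays.

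Probes of a gene often differed in sign. Of 26 such genes, with 72 tested probes, 10 had the same sign on all probes between IMO_FC and HC and 16 did not. Between FC and HC 11 agreed and 15 did not, as between IMO_FC and FC. The widest gaps between probes of a gene were 1.70 for Tomm6 in IMO_FC against HC, 2.28 for Timm21 in FC against HC and 1.68 for Timm17b in IMO_FC against FC. The median gap was 0.46, 0.47 and 0.44 in these comparisons. The median SE of a member probe was 0.30, 0.37 and 0.37, so the sign of many small differences is uncertain. Agreement in sign was not counted over the other genes of the array. Genes whose probes all lay below HC in IMO_FC included Timm8b, at −0.11 and −0.29, and Pmpca, and those above it included Mief1, at 0.64, 0.86 and 0.098. Mtx1 also lay above HC on its 3 probes, but not without IMO_FC 1, as given above.

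The level differences were also set beside the ETS core, as a description. Between IMO_FC and HC the 42 probes of genes whose promoter holds CCGGAAG had a median of 0.0089, and the 47 without it −0.053. Between FC and HC the medians were −0.033 and −0.0051. Between IMO_FC and HC probes with the core ran from −0.63 to 0.87, and those without it from −0.64 to 1.84. The other 10 tested probes were of 6 genes without a matched promoter, Msto1 among them. Their medians were −0.074 and −0.077 in the 2 comparisons. Whether the core bears on these levels was not tested.

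Other genes of the same pathways, among them inner membrane proteases, matrix chaperones, kinesins and porins, were counted beside the members. Of 50, 40 had a tested probe in the 10-array fit, and 17 were higher and 23 lower in IMO_FC than in HC, with a median of −0.11, a range of −0.73 to 0.84 and 0 called. Between FC and HC 16 were higher and 24 lower (median −0.13), and between IMO_FC and FC 24 were higher and 16 lower (median 0.061), with 0 called. Markers of neighbouring tissue moved in part with the groups. Choroid plexus genes were lower on 3 of 4 tested markers in IMO_FC than in HC, with a median of −1.38, and on 3 of 4 in FC, with a median of −0.998. Folr1, also a choroid plexus marker, had no tested probe. The mean log2 value of the 4 tested markers on an array was 7.06 to 7.80 in IMO_FC, 6.95 to 8.11 in FC and 7.37 to 9.84 in HC. Between IMO_FC and HC the median difference was −0.090 for 5 neuron markers, −0.19 for 5 astrocyte markers, −0.31 for 4 endothelium markers, 0.38 for 2 blood markers and 0.31 for 2 striatum markers. It was −0.10 for 4 oligodendrocyte markers, 0.014 for 5 microglia markers, −0.051 for 5 markers of excitatory neurons and 0.059 for 3 of GABA neurons. The 5 central amygdala markers ran from −0.99 (Prkcd) to 1.06 (Tac2), with a median of −0.073. Their part in the small TIM and twin-cysteine values, which leaned lower, was not tested.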

How the data were processed

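Per the file headers, the authors deposited for each array the unnormalized bead intensity and a detection p-value for each probe, and also a table of normalized intensity on a linear scale, whose method is not given in the sources used here (array medians 60.0277 to 60.6727). Per the labels, RNA was purified with an RNeasy kit and biotin-labelled by the MessageAmp procedure. Gene names come from the platform annotation: 34885 probes have 1 symbol, 18 several and 10378 none.

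The unnormalized intensities went through limma's neqc, which corrects background (offset 16), quantile normalizes and takes log2. Tested were probes that 4 or more arrays detected at p under 0.05, in 1 limma model over the 3 groups (residual df 9, or 7 without FC 1 and FC 3), with Benjamini-Hochberg adjustment over all tested probes and calls at adjusted p under 0.05. SE and 95% intervals come from the moderated fit. "At least" folds put each array of a group that did not detect a probe at its own value or the array's weakest detected signal, whichever was higher. They compare group means and carry no interval. The number of arrays limits the precision. Members and gene lists were chosen with earlier results of these data known, so no p is given for the list. Named are Msto1 and Tomm6, up to 6 genes per direction and comparison with the largest differences on their brightest probe, the gene of least error in each role, and genes with several probes, as differences side by side. Other values on single arrays (Timm10b probe 2, Mff probes 1, 3 and 4, Timm21 probes 2 and 3, Mief1 probe 2, Immt probe 2) were chosen after they were seen. So were Grpel1 probe 2's bound and the single-probe genes outside the rule. Alternatives were no background correction, cyclic loess, the authors' normalized values (log2 of the value plus 16), other filters, array weights, an intensity trend, a replicate block, 1 probe per gene and arrays left out. The procedure was tested on simulated data. Protein sequences were not analysed here. Versions were R 4.3.3 and limma 3.58.1.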

Additional observations from a re-analysis of the deposited data

Results flagged for a closer look

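Among 87 groups of 4 arrays examined, over the 29 probes named by rule and all 12 arrays, 8 held an array farther from the other 3 than Dixon's 95% critical value allows, where chance gives about 1 in 20. Of the 8, 3 were on FC 1 and 1 on FC 3, the arrays on which few probes were detected. On FC 1 Tomm6 probe 1 stood at 4.50 (8.76 to 9.28 on the other FC arrays), Tomm40l probe 1 at 5.71 (9.80 to 10.3) and Mfn2 at 4.37 (10.2 to 11.2). On FC 3 Timm44 probe 1 stood at 5.25 (6.71 to 6.86). IMO_FC 1 was high for Chchd10, at 11.2 (10.3 to 10.4 in the rest of IMO_FC). It was low for Mfn2, at 10.5 (11.01 to 11.06). Chchd7 was low on IMO_FC 4, at 6.89 (7.13 to 7.15). In HC, Timm8a1 was low on HC 2, at 8.06 (8.63 to 8.69). All are normalized log2 values with all 12 arrays.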

How the results depend on the processing

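No member probe was called in FC against HC or IMO_FC against FC under any alternative run. In IMO_FC against HC array weights called 1, Msto1, of 2 probes called in all (0.0085%), and the other alternatives 0 of the members. With FC 1 and FC 3 left out, 16 probes did not overlap in FC against HC, and 11 in IMO_FC against FC, whose median became 0.012. With IMO_FC 1 also left out, which was chosen after seeing the data, these were 16 (11.3% of all probes), 25 (22% of all) and 0.043, and groups of 3 against 2 separate more easily. Cyclic loess gave medians of 0.0360 in FC against HC and −0.029 in IMO_FC against FC, with 3 probes apart in FC against HC, and array weights a median of 0.11 in IMO_FC against FC. A filter of detection p under 0.01 on all arrays kept 8 member probes, with medians of 0.15 in IMO_FC against HC, 0.56 in FC against HC and −0.55 in IMO_FC against FC, and 1, 0 and 0 probes apart. With 1 probe per gene (53) the median in IMO_FC against HC was −0.069, with 3 probes apart there and 4 in FC against HC. Fewer probes lie behind these counts; the cause of the other changes was not tested.

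Leaving out each array in turn, the median ran from −0.031 to 0.017 in IMO_FC against HC, from −0.68 to −0.17 in FC against HC and from 0.22 to 0.85 in IMO_FC against FC. Member probes apart ran from 5 to 9, from 7 to 19 and from 3 to 12, and 0 members were called. Without FC 4, 58 probes in all were called in FC against HC and 76 in IMO_FC against FC. The most apart came without IMO_FC 2 (4.92% of all probes) or HC 2 (4.56%) in IMO_FC against HC and without FC 4 in the others (18.4% and 11.6%). With the replicate number as a replicate block the medians were −0.0013, −0.44 and 0.63 and 0 probes were called. The deviations of same-numbered arrays from their group means had correlations from −0.14 to 0.22. Arrays of different numbers were not compared, and with n = 2 in FC the deviations mirror each other. This check therefore cannot decide whether arrays were paired. The labels name no pairs, and the numbers are not taken as pairs. Of 1899 values of the named probes under alternatives, 1820 moved by less than 1 SD between arrays, 79 by more, and 126 had the opposite sign. The SD was that within groups with all 12 arrays. In FC against HC and IMO_FC against FC it includes FC 1 and FC 3, so a move under 1 SD can be large there. No slide block was run, because the headers name no slides. Weak probes, near background in a group, limit the folds of Msto1, Tomm6 probe 2, Timm22 and Timm21 probe 3.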
